A study of Rattus norvegicus with 18 samples.

Results

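MERGE.16214 is a locus of a merged transcript assembly, and its transcripts were followed here in the abdominal aorta of hypertensive and normotensive rats. Its members were all rows of the 18 deposited tables whose identifier starts with that locus name, 7 of the 4874 transcripts listed in any table. The locus itself was chosen from its measured values in these same libraries, with the differences of MERGE.16214.8 and MERGE.16214.20 between the strains known, so its strain values are given as a description, and the calls of the fit over the whole list are counted beside the share of all listed transcripts without anything being read from them. The WKY and SHR tables listed 6 members, numbered 7, 8, 13, 14, 16 and 20. The SHR+ETH tables listed 2, numbered 8 and 22, and MERGE.16214.8 was the single member with values in all 3 groups.

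The study, whose title concerns vascular remodeling in hypertension, compared 6 WKY rats (Wistar Kyoto, the normotensive control strain) with 6 SHR (spontaneously hypertensive rats, inbred for high blood pressure), both given double distilled water by gavage, and with 6 SHR+ETH rats. The last were SHR given ethoxysanguinarine (ETH), a plant alkaloid, at 3.5 mg/kg per day. Water and ETH were each given for 10 weeks, and the labels of the SHR+ETH rats carry both water and ETH as treatment. RNA of the abdominal aorta was sequenced from libraries depleted of ribosomal RNA, 1 library per rat, and libraries are named below by group and label number.

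An assembled locus is a stretch of the genome in which sequencing reads were joined into one or more overlapping transcript models. Transcripts of one locus can differ in their first exon, their splicing or their end, and they usually share sequence, so a value per transcript depends on how a program divided the shared reads. Ribosomal RNA depletion keeps RNAs with and without a poly(A) tail, both coding and non-coding. Which gene, if any, MERGE.16214 corresponds to is not named in the tables. None of the 4874 listed identifiers matched the RefSeq gene table used here, and none of the 7 members did. The locus is therefore described by its numbers only, without sequence, position or function, and the aortic cell types (smooth muscle, endothelium, fibroblasts) could not be checked against their markers.

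The unit of the deposited values is not stated, nor whether they are per transcript length. Levels of 1 transcript are compared between libraries below on the assumption that the deposited values are on 1 scale. Sums and shares over transcripts of the locus are sums and shares of deposited signal, not of molecules. The depth of the libraries is unknown, so no detection limit is given, and "listed at 0" means only that the table holds a 0. The listed values summed to between 30307 and 50521 in WKY libraries, to between 23696 and 50052 in SHR libraries (3659 transcripts each), and to between 7046 and 10220 in SHR+ETH libraries (1635 transcripts). In bulk tissue, fewer cells of a type and less RNA per cell cannot be told apart.

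Of the signal listed for the locus, MERGE.16214.7 held most in every WKY library, and several other transcripts held most in SHR aorta. Transcripts of the locus without listed values in WKY and SHR, such as MERGE.16214.22, are outside this signal. MERGE.16214.8 and MERGE.16214.20 were present in every SHR library. Of the 12 libraries, MERGE.16214.13 and MERGE.16214.16 had signal in SHR libraries only, and MERGE.16214.14 in WKY libraries only. By the means of the 6 libraries, 4 members were higher in SHR and 2 were lower. In treated SHR MERGE.16214.8 was listed at 0 in 5 of 6 libraries.

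**Figure D1:**
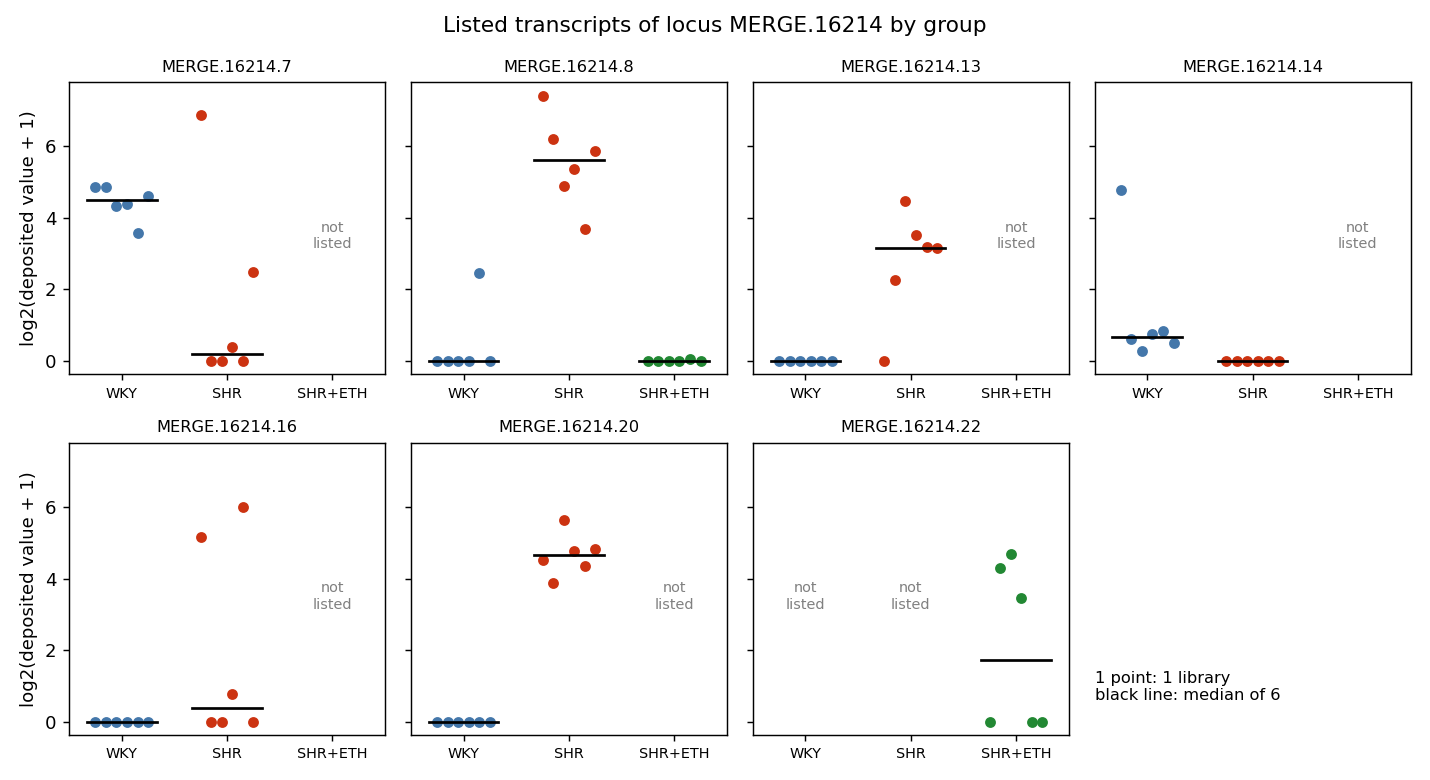
Values of the 7 listed transcripts of the locus, 1 panel each, as log2(deposited value + 1) by group; points are libraries and black lines are medians of the 6 plotted values. MERGE.16214.20 is at 0 in all 6 WKY libraries and between 13.9 and 48.6 (before the log) in all 6 SHR libraries, and MERGE.16214.8 is high in SHR alone of the 3 groups.

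MERGE.16214.20 was listed at 0 in all 6 WKY libraries. In SHR it stood at 22.1 in SHR 3, 13.9 in SHR 40, 48.6 in SHR 41, 26.3 in SHR 48, 19.5 in SHR 59 and 27.2 in SHR 60, a mean of 26.3 ± 12.0 (SD, n = 6). Every SHR value lay above every WKY value, and the highest SHR library was 48.6 against 27.2 in the next. Since the WKY group was at 0 no fold is given. Values above 0 in all SHR libraries and listed zeros in all WKY libraries were seen in 1 of the 6 members, and in 2.05% of the 3659 transcripts in the list.

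MERGE.16214.8 was the most abundant member over the 12 WKY and SHR libraries, with a mean of 32.2 and rank 94 among the 3659 listed transcripts, whose median mean was 1.05. It was listed at 0 in WKY 1, 2, 3, 4 and 6 and stood at 4.47 in WKY 5. The SHR values were 170.7 in SHR 3, 72.5 in SHR 40, 28.9 in SHR 41, 40.6 in SHR 48, 11.9 in SHR 59 and 57.5 in SHR 60. The groups did not overlap, although the SHR libraries themselves spread from 11.9 to 170.7. The mean was 63.7 ± 56.5 (SD, n = 6) in SHR and 0.745 ± 1.82 in WKY, and without SHR 3 the SHR mean was 42.3 ± 23.7 (n = 5). The difference between strains on the log2(value + 1) scale was 5.17 (SE 0.59), a size that depends on the pseudocount because 5 WKY libraries were at 0. With a pseudocount of 0.1 it was 7.94.

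MERGE.16214.7 was the leading member in every WKY library, although its highest single value was in an SHR library. Its WKY values were 27.9 in WKY 1, 27.9 in WKY 2, 19.2 in WKY 3, 20.02 in WKY 4, 11.1 in WKY 5 and 23.7 in WKY 6, a mean of 21.6 ± 6.39 (SD, n = 6). In SHR it was listed at 0 in SHR 40, 41 and 59 and stood at 0.302 in SHR 48, 4.62 in SHR 60 and 116.0 in SHR 3. Thus 5 SHR libraries lay below every WKY library and SHR 3 lay above all of them, so the groups overlapped. The SHR mean of 20.2 ± 47.0 was close to the WKY mean, whereas the medians were 0.151 in SHR and 21.8 in WKY. On the log2(value + 1) scale the difference was -2.82 (SE 0.98), and it was -3.87 without SHR 3, where the SHR mean was 0.984 ± 2.04 (n = 5).

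MERGE.16214.13 was listed at 0 in all 6 WKY libraries and in SHR 3. Its other SHR values were 3.77 in SHR 40, 21.4 in SHR 41, 10.5 in SHR 48, 8.01 in SHR 59 and 7.93 in SHR 60, so the SHR mean was 8.61 ± 7.29 (SD, n = 6). Because SHR 3 was at 0 the groups met at that value. SHR 41 was the highest of the SHR libraries for both MERGE.16214.13 and MERGE.16214.20, and SHR 40 was the lowest of the 5 with signal for both. In those 5 libraries MERGE.16214.20 was 2.27 to 3.68 times MERGE.16214.13 in deposited value. In SHR 3 MERGE.16214.13 was listed at 0 beside 22.1 for MERGE.16214.20.

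MERGE.16214.16 had signal in 3 libraries. It stood at 63.7 in SHR 59, 34.9 in SHR 3 and 0.711 in SHR 48, and was listed at 0 in SHR 40, 41 and 60 and in all 6 WKY libraries. The SHR mean of 16.5 ± 26.9 (SD, n = 6) thus rested on 2 animals, and the SHR median was 0.355. The value of SHR 59 was the highest of any member in that library.

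MERGE.16214.14 was listed at 0 in all 6 SHR libraries. Its WKY values were 26.6 in WKY 1, 0.520 in WKY 2, 0.207 in WKY 3, 0.667 in WKY 4, 0.769 in WKY 5 and 0.409 in WKY 6. The groups did not overlap, but the signal was low outside WKY 1. The WKY mean was 4.86 ± 10.6 (SD, n = 6) with WKY 1 and 0.514 ± 0.220 (n = 5) without it.

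Over the 6 members the values of SHR and WKY did not overlap in 3, MERGE.16214.8, MERGE.16214.14 and MERGE.16214.20, and this held for 19.7% of all 3659 listed transcripts. The filter for testing, 6 or more of the 12 libraries at 1 or above, was passed by 3 members: MERGE.16214.7, MERGE.16214.8 and MERGE.16214.20. MERGE.16214.20 passed that filter through its SHR libraries alone. limma, fitted to all 1585 transcripts that passed, called 3 of these 3 at a Benjamini-Hochberg adjusted p under 0.05, beside 82.5% of all tested. The locus was chosen on this contrast and the listed transcripts may themselves have been picked for a strain difference, so nothing is read from either count.

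The summed signal of the 6 listed members was higher in SHR. The sum holds MERGE.16214.8 and MERGE.16214.20, whose strain differences were known when the locus was chosen, so nothing is read from its difference. Means of MERGE.16214.8 and MERGE.16214.20 were 63.7 and 26.3 in SHR against 0.745 and 0 in WKY. Among the other members, MERGE.16214.13 and MERGE.16214.16 had higher means in SHR, and MERGE.16214.7 and MERGE.16214.14 lower ones. The medians of MERGE.16214.13 and MERGE.16214.16 were 7.97 and 0.355 in SHR, against 0 and 0 in WKY. Those of MERGE.16214.7 and MERGE.16214.14 were 0.151 and 0 in SHR, against 21.8 and 0.593 in WKY. A sum without both chosen members was not analysed. The sum over all 6 listed members was 54.5 in WKY 1, 28.4 in WKY 2, 19.4 in WKY 3, 20.7 in WKY 4, 16.3 in WKY 5 and 24.1 in WKY 6. In SHR it was 343.7 in SHR 3, 90.1 in SHR 40, 98.9 in SHR 41, 78.5 in SHR 48, 103.1 in SHR 59 and 97.2 in SHR 60. Every SHR sum lay above every WKY sum, and 5 of the SHR sums, all but SHR 3, lay between 78.5 and 103.1. The mean sum was 27.2 ± 14.0 (SD, n = 6) in WKY and 135.3 ± 102.5 in SHR, or 93.6 ± 9.61 (n = 5) without SHR 3. As a share of all listed signal, the locus ranged from 0.0424% to 0.162% over the WKY libraries and from 0.194% to 1.45% over the SHR libraries, again without overlap. Without SHR 3 the highest SHR share was 0.349%.

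**Figure D2:**
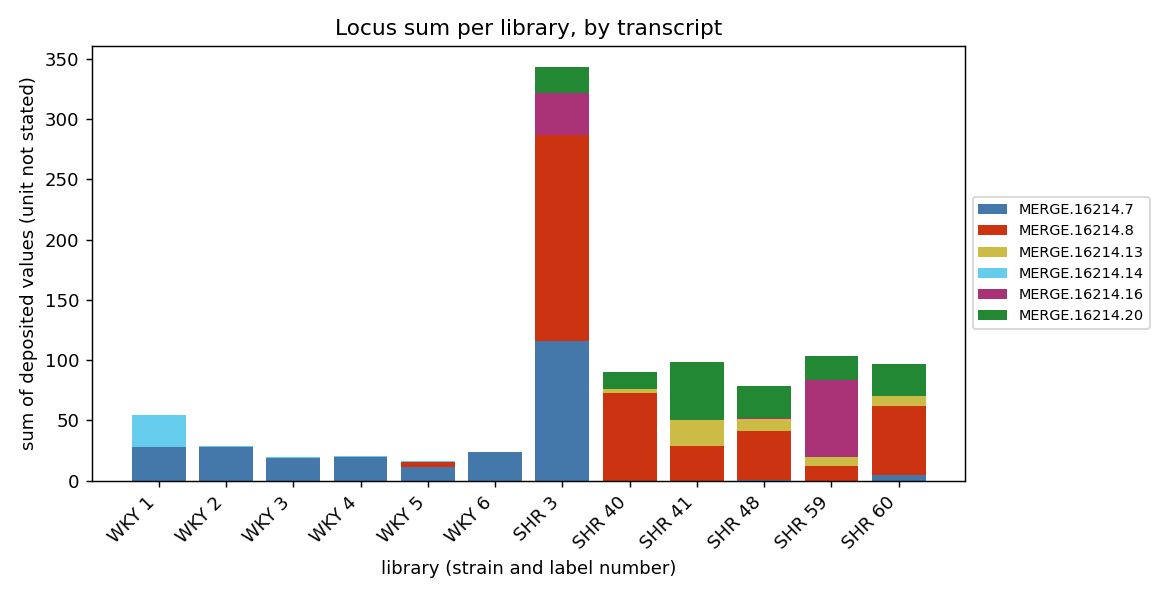
Sum of the deposited values of the 6 listed members in each WKY and SHR library, stacked by transcript (unit not stated). SHR 3 reaches 343.7, the other 5 SHR libraries lie between 78.5 and 103.1, and the WKY libraries lie between 16.3 and 54.5.

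The makeup of the listed locus signal differed between libraries as well as between strains. MERGE.16214.7 made up 96.8% to 98.9% of the sum in WKY 2, 3, 4 and 6. In WKY 1 it shared the sum with MERGE.16214.14 (51.3% and 48.7%), and in WKY 5 with MERGE.16214.8 (67.9% and 27.4%). Between 2 and 3 members were above 0 in a WKY library, and between 3 and 5 in an SHR library.

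In SHR the leading transcript of those listed was not the same in every animal. MERGE.16214.8 led in SHR 3 (49.7%), SHR 40 (80.5%), SHR 48 (51.7%) and SHR 60 (59.1%). MERGE.16214.20 led in SHR 41 (49.1%) and MERGE.16214.16 in SHR 59 (61.8%). The share of MERGE.16214.8 was 47.0% ± 24.0 (SD, n = 6) in SHR and 4.57% ± 11.2 in WKY, and SHR 59 at 11.5% lay below WKY 5 at 27.4%, so the groups overlapped in this share. The share of MERGE.16214.7 was 85.2% ± 20.6 in WKY and 6.48% ± 13.5 in SHR, where SHR 3 at 33.8% was the highest library and the lowest WKY library was at 51.3%. In its share, unlike its level, MERGE.16214.7 thus did not overlap between the strains. That share is divided by a sum holding MERGE.16214.8 and MERGE.16214.20, on which the locus was chosen, so nothing is read from the separation. In SHR 3, for example, MERGE.16214.7 stood at 116.0 beside 170.7 for MERGE.16214.8.

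**Figure D3:**
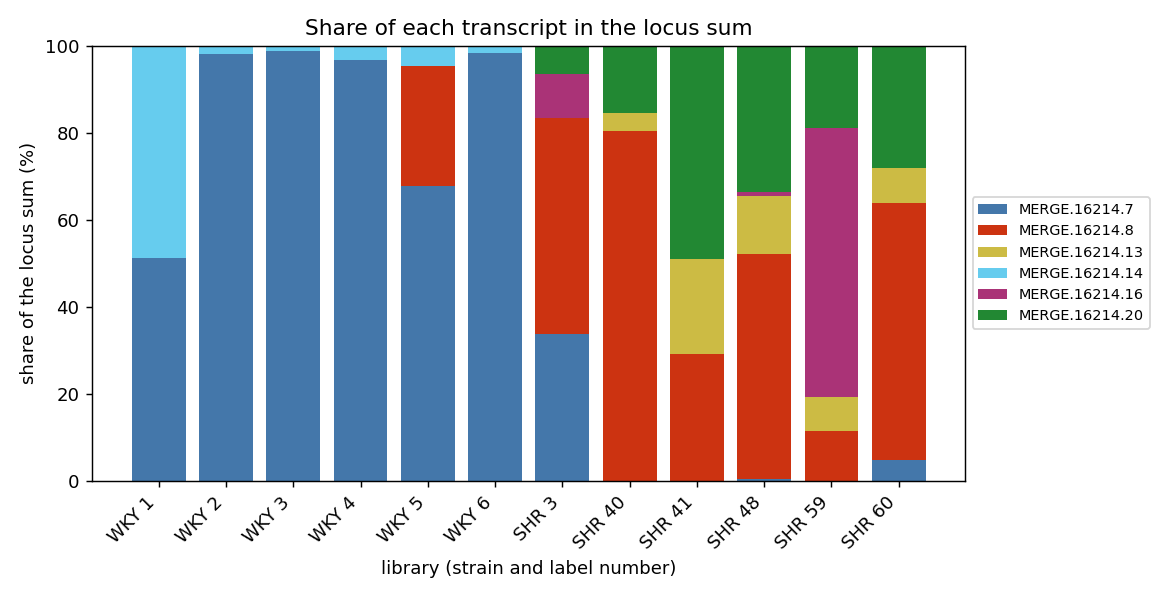
Share of each of the 6 listed members in the locus sum (%) of each WKY and SHR library. MERGE.16214.7 fills 51.3% to 98.9% of the WKY bars and at most 33.8% of the SHR bars, which are led by MERGE.16214.8 in 4 libraries, MERGE.16214.20 in 1 and MERGE.16214.16 in 1.

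SHR 3 and WKY 1 were the libraries with the highest locus sums in their groups. Across all 3659 listed transcripts the median rank correlation of SHR 3 with the other SHR libraries was 0.658, within the 0.645 to 0.663 of the other 5 SHR libraries. SHR 3 was set apart above the other SHR libraries in 80 listed transcripts (a gap to the next library above Dixon's 95% critical value for 6 values) and each of the other SHR libraries in 83 to 136. For WKY 1 the median rank correlation was 0.657, at the low end of the WKY range of 0.657 to 0.683, and it was set apart above the others in 183 listed transcripts, against 71 to 159 for the other WKY libraries. SHR 3 had the lowest listed sum of the SHR libraries, 23696. The part of these library differences in the values of the locus was not tested.

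MERGE.16214.8 was the member through which the locus could be followed into the treated animals. In SHR+ETH it was listed at 0 in SHR+ETH 1, 2, 54, 58 and 65 and stood at 0.0307 in SHR+ETH 64, against 11.9 to 170.7 in untreated SHR. All 6 treated libraries lay below all 6 untreated ones, a separation in this direction that 3.1% of the 420 transcripts with values in all groups showed. limma called it lower in SHR+ETH, as it did 25.1% of the 199 shared transcripts tested. It passed the filter through the SHR libraries alone, it was among the values on which the locus was chosen, and the treated and the strain comparisons share the SHR libraries, so nothing is read from this call. SHR+ETH and WKY were both at or near 0, with 5 of 6 libraries at 0 in each group and single values of 0.0307 and 4.47. No member passed the filter for that comparison, and no fold is given.

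MERGE.16214.22 was listed in the SHR+ETH tables only. It stood at 18.6 in SHR+ETH 2, 24.6 in SHR+ETH 54 and 9.96 in SHR+ETH 58, and was listed at 0 in SHR+ETH 1, 64 and 65, a mean of 8.87 ± 10.8 (SD, n = 6). It was thus above 0 in 3 treated animals and listed at 0 in 3. The 2 members followed in treated animals were not above 0 in the same library: in SHR+ETH 64, the 1 library with MERGE.16214.8 above 0, MERGE.16214.22 was listed at 0. Its level in WKY and untreated SHR was not analysed here, and neither were those of the other 5 members in treated animals, so no sum over the locus can be set against the other groups.

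The rows of the deposited tables were in the same order in all libraries of a list. MERGE.16214.8 was the first of 1635 rows in the SHR+ETH tables and MERGE.16214.22 was in row 483. In the WKY and SHR tables MERGE.16214.20 was in row 14 of 3659, MERGE.16214.14 in row 160, MERGE.16214.8 in row 375, MERGE.16214.13 in row 524, MERGE.16214.7 in row 931 and MERGE.16214.16 in row 2007. What the order means is not stated. Over the 1585 tested transcripts the row number had a rank correlation of 0.804 with the p-value of limma for SHR against WKY, a description across transcripts that share libraries.

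Several listed transcripts per locus were uncommon in the WKY and SHR tables. The 2702 assembled transcripts there came from 2169 loci, of which 331 had at least 2 listed transcripts and 17 at least 5. MERGE.16214 was 1 of 4 loci with 6 listed transcripts, and 6 loci had more, up to 32 for MERGE.16145 and 31 for MERGE.19062. Members in both directions by mean were found in 13 of the 17 loci, and a different leading transcript in SHR than in WKY also in 13 of the 17, MERGE.16214 being among both. Among all 331 loci with at least 2 listed transcripts these numbers were 154 and 182. The mean summed signal of MERGE.16214 in SHR was 4.97 times that in WKY, the third highest of the 17 ratios, which ran from 0.116 to 8.92 with a median of 1.04. MERGE.16214.8 and MERGE.16214.20, whose strain differences were known when the locus was chosen, made up much of that SHR signal (means of 63.7 and 26.3 of 135.3), so the rank restates that choice. The other 2 with higher ratios, MERGE.21027 and MERGE.581, had WKY sums of 0.461 and 1.27, against 27.2 for MERGE.16214. MERGE.16145 and MERGE.19062, the loci with the most listed transcripts, had ratios of 1.04 and 0.292.

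**Figure D4:**
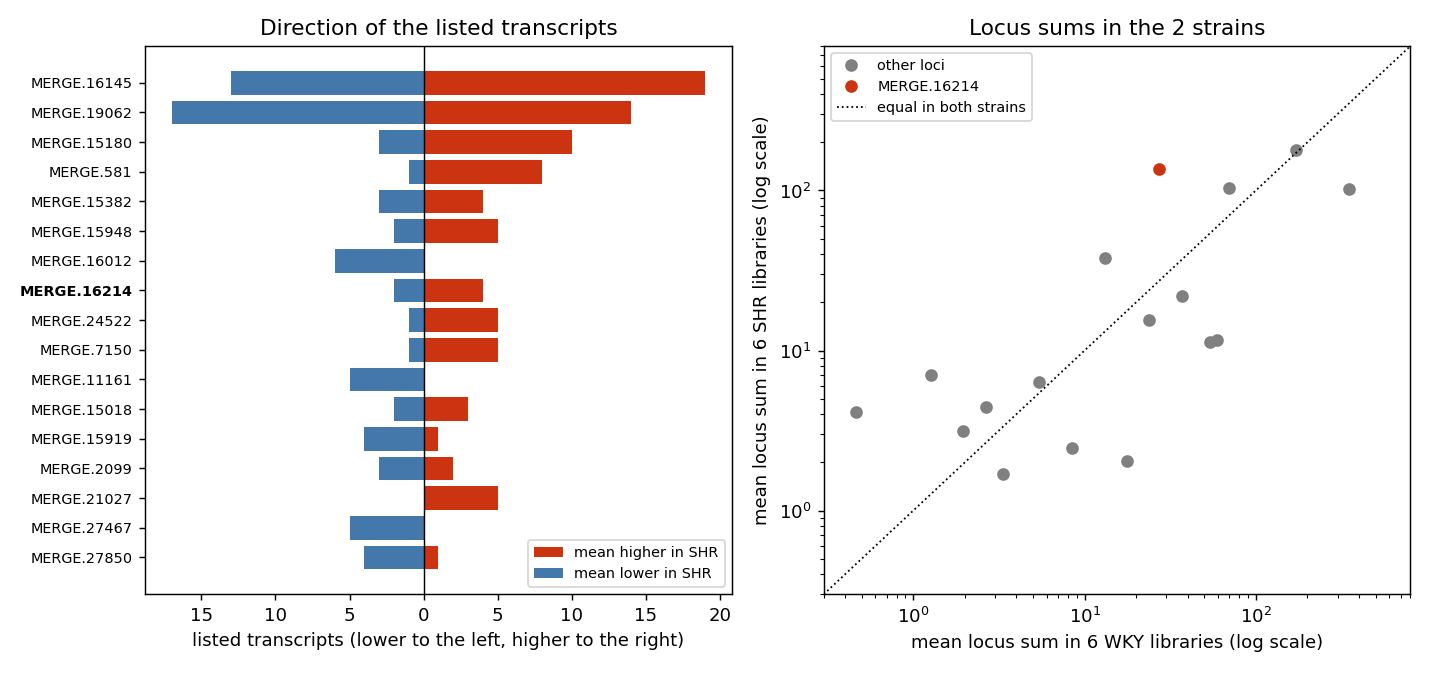
The 17 assembled loci with at least 5 listed transcripts in the WKY and SHR tables: left, how many of their transcripts had a higher or lower mean in SHR; right, their mean summed signal in 6 SHR against 6 WKY libraries on log scales, with a dotted line of equality. MERGE.16214 has 4 higher and 2 lower transcripts and lies above the line at 27.2 in WKY and 135.3 in SHR.

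The likeness of the members within strains depended on SHR 3. On log2(value + 1) with each strain's mean removed, over the 12 WKY and SHR libraries, the member most like MERGE.16214.20 was MERGE.16214.13, with a Pearson r of 0.55, or 0.96 without SHR 3, where MERGE.16214.13 was at 0. MERGE.16214.7 was most like MERGE.16214.8, with 0.50, or -0.05 without SHR 3, in which both were highest. Between MERGE.16214.8 and MERGE.16214.13 r was -0.60, or -0.26 without SHR 3. With MERGE.16214.16 it was -0.09, or -0.58 without SHR 3, so which member ran most opposite to MERGE.16214.8 changed with that library. With MERGE.16214.20 it was -0.17, or -0.12. MERGE.16214.20 ran most opposite to MERGE.16214.16, at -0.30, or -0.29 without SHR 3. MERGE.16214.20 is at 0 in all WKY libraries, so what it shares with another member rests on the 6 SHR libraries, or 5 without SHR 3. The spread of the other member in WKY still enters r.

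Among 1582 tested transcripts outside the locus, the most alike to MERGE.16214.8 by the same measure were MERGE.22162.1 (r = 0.87), ENSRNOT00000083067 (0.86) and MERGE.10911.6 (0.83). For MERGE.16214.20 they were ENSRNOT00000042283 (0.84), ENSRNOT00000014560 (0.80) and MERGE.16315.2 (0.78). ENSRNOT00000042283 was also listed at 0 throughout WKY, with 3.59 ± 1.81 (SD, n = 6) in SHR. ENSRNOT00000014560 was lower in SHR by its mean, at 1.05 ± 2.38 against 6.19 ± 1.14 in WKY. So was MERGE.16315.2, at 44.2 ± 55.7 against 59.5 ± 17.6. Of those alike to MERGE.16214.8, MERGE.22162.1 was lower in SHR, at 32.5 ± 5.23 against 85.1 ± 8.44 in WKY. ENSRNOT00000083067 (6.82 ± 3.91 against 1.07 ± 1.72) and MERGE.10911.6 (2.40 ± 0.798 against 0.681 ± 0.465) were higher in SHR. These are the highest of many values over few libraries of shared processing, and they are given as a description.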

How the data were processed

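Abdominal aorta of 18 rats was sequenced after ribosomal RNA depletion, per the labels' protocols. Each deposited table gave 1 signal value per listed transcript. Its unit, and the authors' aligner, assembler, quantifier, genome build and filter, are not stated there. limma is named in the submitters' processing notes, with neither version nor role. Rows without identifier (2024 per SHR+ETH table) were dropped. The members, tests and gene lists were chosen with earlier results of these data known. Members were matched by identifier, and the values of every member were written out for every library. Sums and shares were taken over the 6 members of the WKY and SHR tables. limma 3.58.1 in R 4.3.3 (lmFit, eBayes with trend, two-sided) was run on log2(value + 1) for the 12 libraries of each pair of groups, over all listed transcripts at 1 or above in 6 or more of the 12, with Benjamini-Hochberg adjustment, and was tested on simulated data. Replicates are separate animals, per the labels. The alternatives were another pseudocount, other filters, quantile normalization, scaling to the listed sum, medians, a replicate block and leaving out each library. Loci with at least 5 listed transcripts served to place the locus. Python 3.11.15, numpy 2.4.6, pandas 2.3.3 and scipy 1.17.1 were used.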

Additional observations from a re-analysis of the deposited data

Results flagged for a closer look

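Of 14 groups of 6 values with any spread (each member in each group, and 2 summaries of the locus in WKY and SHR), 7 had a library set apart. That is, the lowest or highest library was separated from the next by more than Dixon's 95% critical value. It was the highest library in each of the 7. Chance sets apart a library at either end in about 5% of groups of normally distributed values, and these values were skewed and often 0. The groups are also not independent, since the summaries hold members that were counted on their own. The count is therefore not weighed against that rate. MERGE.16214.7 stood at 116.0 in SHR 3, and the remaining SHR libraries lay between 0 and 4.62. The locus sum was 343.7 in SHR 3, with the others between 78.5 and 103.1. In WKY 1 the locus sum was 54.5, with the others between 16.3 and 28.4, and MERGE.16214.14 stood at 26.6, with the others between 0.207 and 0.769. MERGE.16214.8 stood at 4.47 in WKY 5 with the other WKY libraries at 0, which was 27.4% of the locus sum there. It stood at 0.0307 in SHR+ETH 64, with the other treated libraries at 0.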

How the results depend on the processing

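The members called between SHR and WKY numbered 3 of the 3 tested, beside 1308 of all 1585 tested transcripts. Without the filter, which let all 6 members enter, they numbered 4, beside 2547 of all 3659. MERGE.16214.8 was called lower in SHR+ETH than in SHR under the 16 alternatives run. The locus was chosen on these values and MERGE.16214.8 and MERGE.16214.20 passed the filter through the SHR libraries, so these counts are no sign of stability. For SHR+ETH against WKY no member passed the filter, so 0 members were called in the paired analysis with the shared label numbers as a replicate block too. With or without that block, and with no filter (the block without the filter was added after seeing the data), limma gave MERGE.16214.8 an adjusted p of 1. The numbers shared by WKY and SHR+ETH belong to animals of different strains. The log2 ratio of the mean locus sums, 2.31, fell to 1.43 without MERGE.16214.8, and lay between 1.78 and 2.73 under the other 14 alternatives, at 1.78 without SHR 3. The share of MERGE.16214.8 in the locus sum was 42.4 percentage points higher in SHR, with a range of 35.7 to 50.7 over 14 alternatives. No alternative left out MERGE.16214.20. The ratio and the share both hold values on which the locus was chosen, so their ranges are no sign of stability either. The count of members whose strains did not overlap was 2 among the 3 that passed the filter. The share among all transcripts that passed was not computed, so nothing is read from that count. Depth is unknown, so a listed 0 cannot be told from a level below detection.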
